A study of Sorghum bicolor with 64 samples.

Results

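Sorghum stores carbon in its stem both as soluble sugar and as starch granules, and 4 genes of the enzymes that shape the granule's branched glucan are described here across stems and leaves. They are isoamylase 1 (Sobic.007G204600), isoamylase 3 (Sobic.002G233600), a starch branching enzyme (Sobic.010G273800) and a starch synthase (Sobic.010G047700), taken by identifier from the deposited tables, which makes 4 genes of the 16942 in the stem table and the 16386 in the leaf table. The deposited descriptions name both isoamylases as such. They call Sobic.010G047700 starch synthase 2, whereas the study numbers it as another starch synthase. For Sobic.010G273800 they give only a match to a protein family. Isoamylases, alpha-amylases and other branching enzymes share that family, so that its name as a branching enzyme is the study's. Every value of the 4 genes was above 0 in every library.

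Starch synthases lengthen glucan chains with glucose taken from ADP-glucose, and branching enzymes cut such a chain and rejoin the piece as a branch. Isoamylases are debranching enzymes. Isoamylase 1 trims misplaced branches while the granule is being built, in many plants as a complex with isoamylase 2, and isoamylase 3 is best known from Arabidopsis leaves, where it debranches glucans during starch breakdown. A pool of starch in the stem can thus be both built and taken apart with enzymes of these families.

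The plants were field-grown near-isogenic lines in the Tx623 background that differ at the Dry locus. DD plants carry a functional SbNAC074A, a NAC transcription factor, and dd plants carry a recessive allele for a truncated protein. Heads were either cut off at anthesis or left in place (control). Sampling after 3 or 10 d gave 8 groups in each organ. Stem samples were internode 4 counted from the top, without its outer layer, and leaf samples were the middle of the second leaf, not counting the flag leaf. The labels describe 64 samples, and 29 stem and 24 leaf samples have columns in the tables, 3 or 4 per stem group and 3 per leaf group. All values are TPM, a relative transcript abundance, which correct for transcript length and library total, so levels of different genes can be compared but sequencing depth is unknown and the precision of a value is known only from the replicates. The labels call the replicates biological, and the study states independent plants for its sugar measurements but does not say so of the RNA samples, so the p-values measure the spread between these samples.

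The libraries were checked against their labels and markers. SbXCP1 (Sobic.007G172100), a cysteine protease gene of the cell death program, ranged from 0 to 0.355 TPM in dd stems and from 0.0744 to 84.1 TPM with a median of 18.1 TPM in DD stems, so that the genotypes overlapped at the low end. In leaves its median was 1.65 TPM in DD and 9.57 TPM in dd, and the ranges overlapped. SbNAC074A (Sobic.006G147400) was read in stems of both genotypes. The summed level of 21 green tissue markers (chlorophyll-binding proteins, the Rubisco small subunit and pyruvate, phosphate dikinase) was 17435 to 52417 TPM in leaves and 1912 to 10188 TPM in stems. It was higher in decapitated stems (3728 to 10188 TPM) than in control stems (1912 to 8142 TPM), and 14 of the 21 markers passed the test for treatment, all upward. Of 3 cellulose synthase genes, taken as cell wall markers, 0 passed for treatment in stems (0.35, -0.57 and -0.84 on the log2 scale). On the first principal component of the 500 most variable genes, stem dd control 10 d replicates 3 and 4 lay at 9.52 and 9.15, within the range of the decapitated stems (-10.3 to 31.0), whereas replicates 1 and 2 lay at -23.0 and -25.0. In leaves, DD head removal 3 d replicates 2 and 3 lay at 33.0 and 45.1 and replicate 4 at 9.94. Results that change without these libraries are given with both values.

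**Figure D1:**
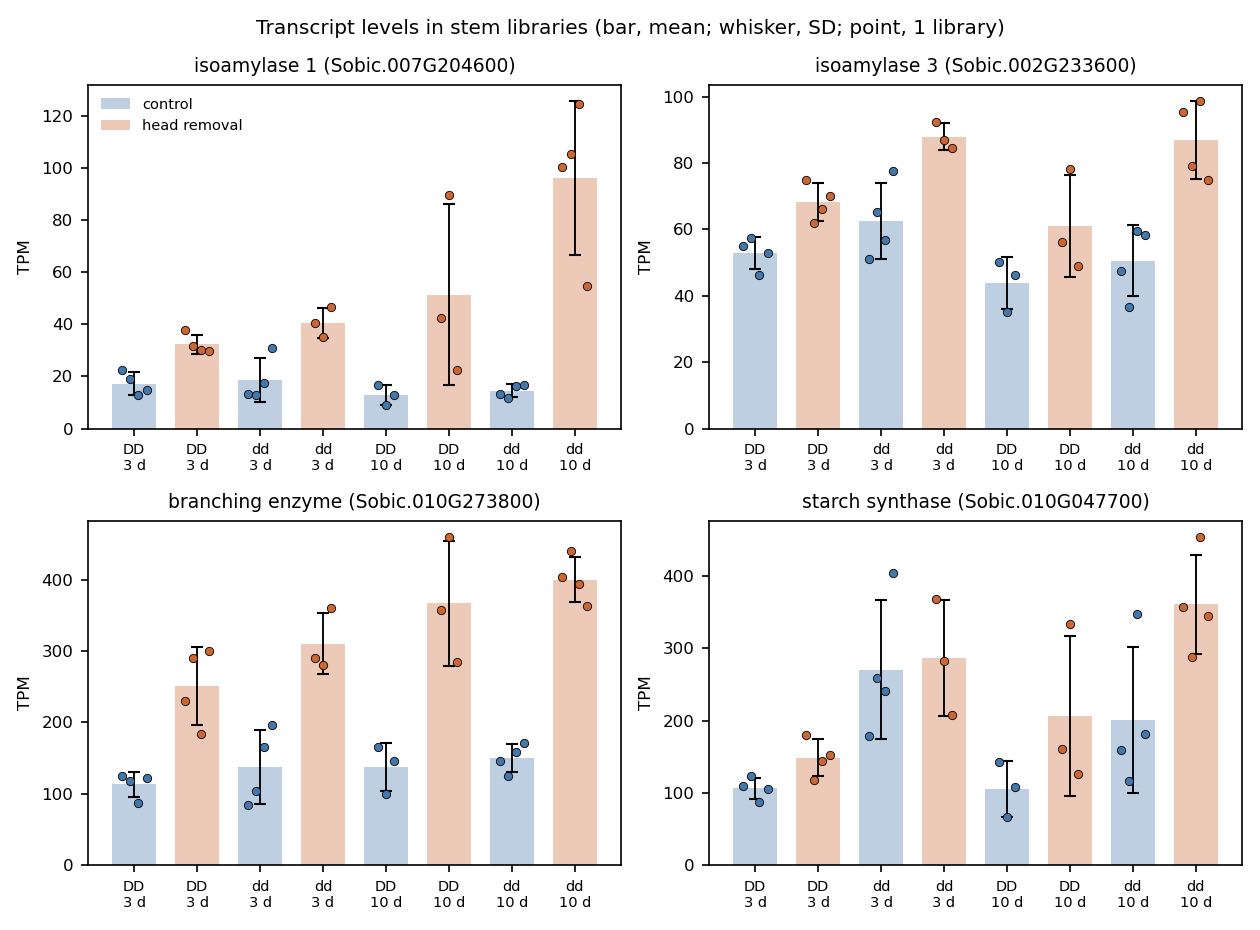
Transcript level in TPM (vertical axis, from 0) of the 4 genes in the 8 stem groups (horizontal axis, genotype and day). Bars are group means, whiskers the SD and points single libraries, blue for control and orange for head removal. For isoamylase 1 and the branching enzyme the decapitated libraries lay above the controls in 4 of 4 genotype and day combinations, and for starch synthase in 0 of 4.

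In stems, head removal went with higher transcript levels of all 4 genes. The rise was 3.07-fold for isoamylase 1, 2.45-fold for the branching enzyme, 1.52-fold for starch synthase and 1.45-fold for isoamylase 3, each over both genotypes and both days on the log2(TPM + 1) scale. Of all 16942 stem genes, 14.4% rose and 23.5% fell with head removal under the same threshold (limma, adjusted p under 0.01). Genes that rose made up 38% of these calls, 50.8% with median-of-ratios scaling and 47.9% with quantile normalization, and all 4 genes rose under each. The median effect of the 4 genes was 0.95 on the log2 scale, against -0.06 over all stem genes. The study named these 4 genes from these same samples, so their standing against all genes is not independent evidence of a rise. In these bulk samples, more cells of a kind and more RNA per cell cannot be told apart, and whether the green tissue markers that rose in the same libraries had a part in these results was not tested.

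Isoamylase 1, the debranching enzyme of granule building, had the largest effect of the 4 and ranked 73rd from the top of all stem genes. In DD stems at 3 d it stood at 22.5, 19.2, 12.8 and 14.6 TPM in the controls and at 37.9, 31.6, 30.2 and 29.9 TPM after head removal. In dd stems at 3 d the controls read 13.3, 12.8, 17.6 and 30.9 TPM and the decapitated libraries 40.6, 35.0 and 46.5 TPM. The lowest decapitated library was thus above the highest control in both genotypes, although dd control replicate 4 stood well above its 3 companions. At 10 d the DD controls read 16.6, 9.04 and 12.7 TPM against 42.3, 89.8 and 22.3 TPM after head removal. The dd controls at 10 d read 13.1, 11.6, 16.5 and 16.7 TPM against 100.4, 105.7, 124.6 and 54.9 TPM. The 3 highest levels of this gene in the series were in dd libraries decapitated for 10 d, and the 3 DD libraries of that day were the most uneven, with a coefficient of variation of 67.3%.

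Over all stem libraries the effect of head removal on isoamylase 1 was 1.62 ± 0.20 (log2, SE, adjusted p = 3.8e-07), from a mean of 16.0 ± 5.31 TPM (SD, n = 15) to 56.6 ± 33.6 TPM (SD, n = 14). Within the 4 genotype and day combinations it was 0.89 ± 0.32 in DD at 3 d, 1.16 ± 0.34 in dd at 3 d, 1.75 ± 0.36 in DD at 10 d and 2.61 ± 0.32 in dd at 10 d. The adjusted p was 0.0953 and 0.017 at 3 d and 0.00181 and 5.91e-06 at 10 d, so that both effects at 10 d passed and neither at 3 d did. Of all stem genes, 0.761%, 4.66%, 3.55% and 6.63% rose in these comparisons, in the same order. The DD effect at 10 d lost its call without DD head removal replicate 2, the library at 89.8 TPM (1.24, adjusted p = 0.0174), and without DD control replicate 2 (1.54, adjusted p = 0.0185). The dd effect at 3 d passed without dd control replicate 4 (1.43, adjusted p = 0.00545), and also without DD head removal 10 d replicate 2 or replicate 4, where its value stayed at 1.16 and its SE was 0.29.

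The larger values at 10 d than at 3 d were tested as an interaction. The effect of head removal on isoamylase 1 was 1.15 ± 0.34 higher at 10 d than at 3 d (log2, SE, unadjusted p = 0.00224), and its adjusted p of 0.108 did not pass. Of all stem genes, 0.0472% passed this interaction in either direction. The effect in dd minus that in DD was 0.56 ± 0.34 (adjusted p = 0.753), a contrast that 0% of stem genes passed. The 12 interactions of the 4 genes in stems included none that passed, and isoamylase 1 with treatment and day was the 1 with an unadjusted p under 0.05, which 14.1% of stem genes had for that interaction. The share of stem genes that passed the interaction of genotype and day was 0.0059%.

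The branching enzyme separated decapitated from control stems most fully of the 4 genes, with 13 of 14 decapitated libraries above the highest control (11 for isoamylase 1, 7 for isoamylase 3 and 1 for starch synthase). The share of all stem genes that reach such pooled counts was not computed. The controls ranged from 84.7 to 197 TPM with a median of 125 TPM over 15 libraries, and the decapitated libraries from 183 to 459 TPM with a median of 329 TPM over 14. Only DD head removal 3 d replicate 3, at 183 TPM, lay below the highest control, which was dd control 3 d replicate 4 at 197 TPM. In DD stems at 3 d the controls read 125, 118, 86.5 and 122 TPM and the decapitated libraries 230, 290, 183 and 301 TPM. In dd stems at 10 d the controls read 146, 125, 158 and 171 TPM against 403, 440, 393 and 364 TPM. No control overlapped a decapitated library of its own genotype and day, as for isoamylase 1, and 2.21% of all stem genes were higher after head removal without overlap in all 4 combinations.

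The effect of head removal on the branching enzyme was 1.29 ± 0.11 (log2, SE, adjusted p = 6.56e-10), from a mean of 134 ± 33.2 TPM (SD, n = 15) to 331 ± 78.9 TPM (SD, n = 14). This gene passed in each of the 4 genotype and day combinations, with 1.13 ± 0.22 in DD at 3 d (adjusted p = 0.00364), 1.24 ± 0.24 in dd at 3 d (0.000841), 1.41 ± 0.25 in DD at 10 d (0.000506) and 1.41 ± 0.22 in dd at 10 d (6.62e-05). The smallest of them, in DD at 3 d, missed the threshold in turn without DD control replicate 3 (1.01, adjusted p = 0.0208), DD head removal replicate 2 (1.05, 0.0157) and DD head removal replicate 4 (1.04, 0.0162). The effect in dd minus that in DD was 0.05 (95% interval -0.42 to 0.53, adjusted p = 0.97), and the effect at 10 d minus that at 3 d was 0.23 (95% interval -0.25 to 0.71, adjusted p = 0.717).

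Isoamylase 3 rose less than isoamylase 1 and from a higher level. In DD stems at 3 d it stood at 54.9, 57.5, 46.2 and 53.0 TPM in controls and at 75.0, 61.8, 66.1 and 70.1 TPM after head removal. In dd stems at 10 d it stood at 47.5, 36.7, 59.6 and 58.3 TPM in controls and at 95.3, 79.0, 98.7 and 74.8 TPM after head removal. The groups did not overlap there, nor in dd at 3 d, where the controls reached 77.5 TPM and the decapitated libraries began at 84.5 TPM. Of all stem genes, 5.5% were higher without overlap in at least 3 of the 4 combinations. In DD at 10 d the groups did overlap, with controls at 50.3, 35.1 and 46.4 TPM and decapitated libraries at 56.2, 78.4 and 48.9 TPM. The effect over all stem libraries was 0.53 ± 0.08 (log2, SE, adjusted p = 7e-06), and of the 4 combinations dd at 10 d passed alone (0.79 ± 0.16, adjusted p = 0.000733). The others lay between 0.36 and 0.50 with adjusted p from 0.0351 to 0.172.

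Starch synthase, the chain-lengthening enzyme, differed most between genotypes. In controls at 3 d the DD stems read 109, 124, 87.9 and 105 TPM and the dd stems 178, 259, 240 and 405 TPM. After head removal at 3 d the DD stems read 180, 118, 144 and 152 TPM and the dd stems 369, 282 and 208 TPM. All dd libraries of 3 d were thus above all DD libraries of the same treatment and day, although the dd libraries were also the more spread. Of all stem genes, 4.21% were higher in dd without overlap in at least 2 of the 4 combinations of treatment and day. At 10 d the genotypes overlapped in both treatments. The DD controls read 142, 65.8 and 108 TPM and the dd controls 160, 116, 348 and 181 TPM, and after head removal the DD libraries read 161, 333 and 126 TPM and the dd libraries 357, 288, 454 and 345 TPM. After head removal the overlap came from DD replicate 2 at 333 TPM and dd replicate 2 at 288 TPM.

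The level of starch synthase in dd stems was 2.03-fold that in DD stems (1.02 ± 0.17, log2, SE, adjusted p = 0.000114), and it ranked 33rd from the top of 16942 stem genes. Of these, 5.17% were higher and 12.7% lower in dd, and the higher ones made up 29% of the calls, against 54.1% with median-of-ratios scaling and 56.2% with quantile normalization. The summed green tissue markers had a mean of 6009 TPM in DD and 5749 TPM in dd stems, with 1 of 21 higher and 1 lower in dd. The sum of 3 cellulose synthase genes, taken as cell wall markers, had a mean of 283 TPM in DD and 376 TPM in dd. Of these 3 genes, 0 passed as higher and 0 as lower in dd. Whether tissue make-up had a part in the genotype difference was not tested. Within each treatment and day the difference in starch synthase was 1.29 ± 0.31 in controls at 3 d, 0.92 ± 0.34 after head removal at 3 d, 0.88 ± 0.34 in controls at 10 d and 0.91 ± 0.34 after head removal at 10 d. Each was in the same direction and none passed by itself (adjusted p from 0.0363 to 0.164), in comparisons that 0.059%, 0.661%, 0.059% and 0.242% of stem genes passed upward. The difference between genotypes did not pass an interaction with treatment (-0.17 ± 0.33, adjusted p = 0.924) or with day (-0.21 ± 0.33, adjusted p = 0.83).

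Head removal raised starch synthase by 0.60 ± 0.17 over all stem libraries (log2, SE, adjusted p = 0.00376), from 175 ± 98.1 TPM (SD, n = 15) to 251 ± 109 TPM (SD, n = 14). Controls and decapitated libraries overlapped in all 4 combinations, and no combination passed alone. The values were 0.47 ± 0.31 in DD and 0.11 ± 0.34 in dd at 3 d, and 0.91 ± 0.36 in DD and 0.94 ± 0.31 in dd at 10 d, with adjusted p from 0.0281 to 0.849. The dd value at 10 d was larger and passed without dd control replicate 3, the control at 348 TPM (1.24, adjusted p = 0.00385), and without dd control replicates 3 and 4, the libraries that lay among decapitated stems on the first component (1.38, adjusted p = 0.00432).

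Among the other genes, isoamylase 3 was also higher in dd stems, by 0.32 ± 0.08 (log2, SE, adjusted p = 0.00446). This call was lost without dd control 10 d replicates 3 and 4 (0.30, adjusted p = 0.0125) and without DD control 10 d replicate 2 (0.30, adjusted p = 0.0103). Isoamylase 1 (0.41 ± 0.21, adjusted p = 0.125) and the branching enzyme (0.21 ± 0.11, adjusted p = 0.132) did not pass.

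Day had no called effect on the 4 genes in stems, whereas 8.84% of stem genes rose and 23.7% fell from 3 to 10 d (27.2% of calls upward, 51.2% with median-of-ratios scaling and 46.6% with quantile normalization). An unadjusted p under 0.05 was found for 2 of the 4 genes and for 53.3% of all stem genes. The value at 10 d minus that at 3 d was 0.34 ± 0.11 for the branching enzyme (log2, SE, adjusted p = 0.0133) and -0.20 ± 0.08 for isoamylase 3 (adjusted p = 0.051). The branching enzyme passed with median-of-ratios scaling (0.43, adjusted p = 0.00379) and with array weights (0.35, adjusted p = 0.0063), and also without any 1 of 4 control libraries (dd 3 d replicates 3 and 4, DD 10 d replicate 2 and dd 10 d replicate 2), at 0.37 to 0.39. Isoamylase 1 (0.22 ± 0.21) and starch synthase (0.02 ± 0.17) had adjusted p of 0.384 and 0.942.

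Ordered by group mean, the stem levels of isoamylase 1 ran from 12.8 TPM in DD controls at 10 d to 96.4 TPM in dd libraries decapitated for 10 d, and those of the branching enzyme from 113 TPM in DD controls at 3 d to 400.0 TPM in the same dd group. For both genes the 4 control groups held the 4 lowest means and the 4 decapitated groups the 4 highest. Neighbours in that order overlapped in range at every step, with 1 exception, the step from dd controls at 10 d (125 to 171 TPM) to DD stems decapitated for 3 d (183 to 301 TPM) for the branching enzyme. For isoamylase 3 the order ran from 43.9 TPM in DD controls at 10 d to 88.0 TPM in dd stems decapitated for 3 d, closely followed downward by the dd stems decapitated for 10 d at 86.9 TPM. For starch synthase it ran from 105 TPM in DD controls at 10 d to 361 TPM in dd stems decapitated for 10 d, and the intact dd groups (201 and 271 TPM) lay above the DD stems decapitated for 3 d (149 TPM). All neighbours overlapped for these 2 genes.

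**Figure D2:**
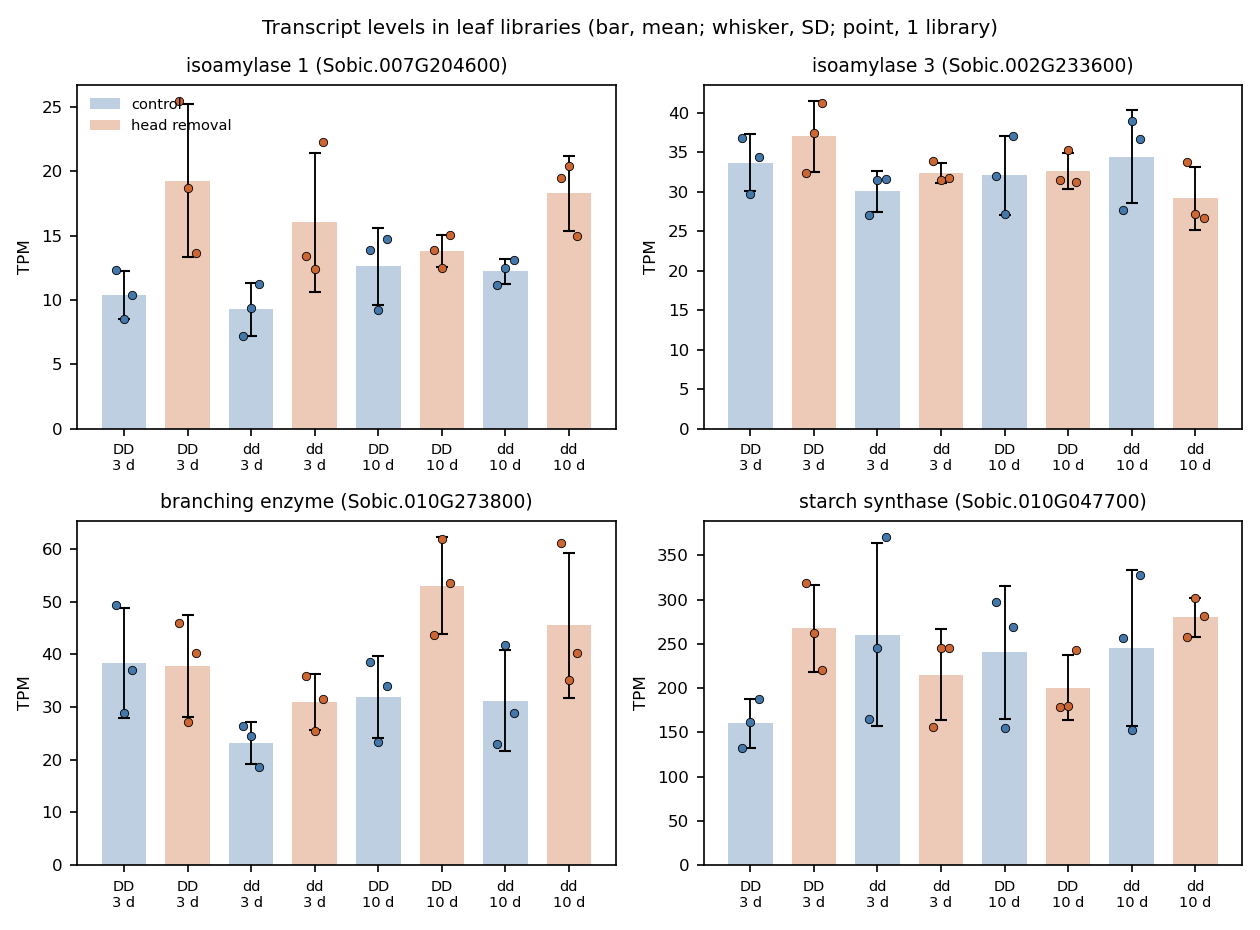
Transcript level in TPM (vertical axis, from 0) of the 4 genes in the 8 leaf groups of 3 libraries (horizontal axis, genotype and day), with bars, whiskers and points as in the plot of stem levels. The isoamylase 1 controls reached 14.8 TPM and the decapitated libraries 25.5 TPM. For the branching enzyme, starch synthase and isoamylase 3, decapitated and control libraries overlapped in most or all of the 4 genotype and day combinations.

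In leaves, isoamylase 1 was the only one of the 4 genes that passed for head removal. Its 12 control libraries ranged from 7.18 to 14.8 TPM with a median of 11.2 TPM and its 12 decapitated libraries from 12.4 to 25.5 TPM with a median of 15.0 TPM. In DD leaves at 3 d the controls read 12.3, 8.50 and 10.4 TPM and the decapitated libraries 25.5, 18.7 and 13.6 TPM. In DD leaves at 10 d they read 13.9, 9.22 and 14.8 TPM and 13.9, 12.5 and 15.0 TPM, which was the 1 combination of 4 in which the groups overlapped. Of all leaf genes, 2.05% were higher without overlap in at least 3 of the 4. The effect was 0.55 ± 0.13 (log2, SE, adjusted p = 0.00369) and 1.46-fold, in an organ in which 4.32% of 16386 genes rose and 7.05% fell (38% of calls upward, 48.8% with median-of-ratios scaling). Of the 21 green tissue markers 0 rose and 1 fell in leaves. Without DD head removal 3 d replicates 2 and 3 it was 0.44 and did not pass (adjusted p = 0.0146).

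The branching enzyme in leaves ranged from 18.7 to 49.4 TPM in controls and from 25.4 to 62.0 TPM after head removal, with an effect of 0.41 ± 0.14 (log2, SE, adjusted p = 0.0311) that did not pass. Starch synthase ranged from 132 to 370 TPM in control leaves and from 156 to 319 TPM in decapitated ones (0.14 ± 0.16, adjusted p = 0.55). Isoamylase 3 was the most even of the 4, between 26.7 and 41.3 TPM in all 24 leaf libraries, and its effect of head removal was 0.01 with a 95% interval from -0.14 to 0.16.

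Neither genotype nor day had a called effect on the 4 genes in leaves (limma, adjusted p from 0.143 to 0.957 and from 0.112 to 0.603). For genotype 4.7% of leaf genes were higher and 0.738% lower in dd, and for day 17.8% were higher and 3.69% lower at 10 d. The higher genes were 86.4% of the calls for genotype and 82.8% for day, against 66.5% and 53.8% with median-of-ratios scaling and 81.1% and 57.3% with quantile normalization. An unadjusted p under 0.05 was found for 1 of the 4 genes for genotype, the branching enzyme (-0.31 ± 0.14, adjusted p = 0.143), against 28.9% of all leaf genes, and for 0 of the 4 for day, against 45.8%. Starch synthase, which was higher in dd stems, differed between genotypes in leaves by 0.20 with a 95% interval from -0.13 to 0.54. None of the 12 interactions of the 4 genes in leaves passed, none had an unadjusted p under 0.05, and 0% of leaf genes passed any of the 3 interactions.

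**Figure D3:**
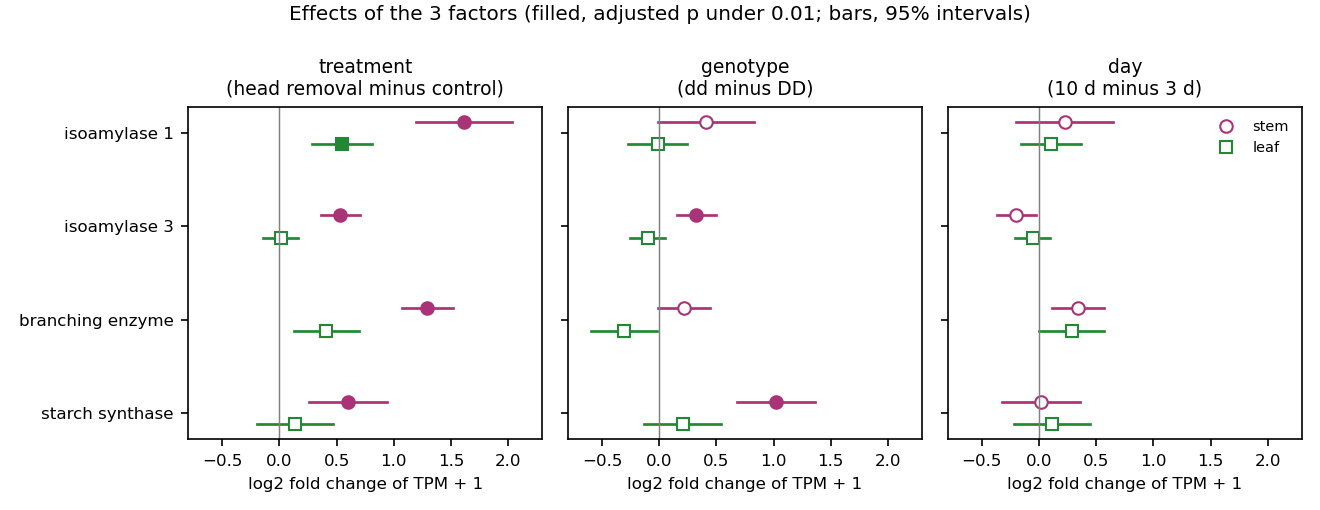
Log2 fold change of TPM + 1 (horizontal axis) for treatment, genotype and day for the 4 genes (vertical axis), with stems as circles, leaves as squares, filled symbols where the adjusted p was under 0.01, and bars for 95% intervals. The stem effects of treatment lie between 0.53 and 1.62, and in leaves the effect on isoamylase 1 (0.55) is the only filled symbol.

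The effects of head removal in stems and leaves were compared directly in 1 model over the 14496 genes in both tables. The stem effect was larger by 1.07 ± 0.26 for isoamylase 1 (log2, SE, adjusted p = 0.00104), by 0.88 ± 0.18 for the branching enzyme (adjusted p = 0.000113) and by 0.52 ± 0.11 for isoamylase 3 (adjusted p = 0.000301). For starch synthase the difference was 0.47 ± 0.24 (95% interval -0.02 to 0.95) and did not pass (adjusted p = 0.127). Of all genes compared, 10.1% had an effect that passed as higher in stems than in leaves. The model takes stem and leaf libraries as independent, and the sources do not say which came from 1 plant.

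The levels themselves were set side by side without a test, because the tables of the organs were made separately. The branching enzyme differed most between organs, with a mean of 134 TPM in control stems and 31.2 TPM in control leaves, and its lowest stem library (84.7 TPM) was above its highest leaf library (62.0 TPM). Isoamylase 3 read 53.1 TPM in control stems and 32.6 TPM in control leaves, and isoamylase 1 read 16.0 and 11.1 TPM. Starch synthase alone was lower in control stems than in control leaves (175 and 227 TPM), and after head removal the organs were level (251 and 241 TPM). Among the 4 genes, starch synthase had the highest mean in leaves (234 TPM) and the branching enzyme the highest mean in stems (229 TPM), with starch synthase next at 212 TPM.

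Other genes of starch metabolism were drawn from the deposited descriptions and the study's identifiers by fixed word patterns, which gave 28 further genes in stems and 29 in leaves. In stems 11 of the 28 rose and 3 fell with head removal, which is 39.3% and 10.7%, and their median effect was 0.26 on the log2 scale. These shares stand against 14.4% and 23.5% of all stem genes. In dd against DD, 5 of the 28 were higher (17.9%) and 2 lower (7.14%), against 5.17% and 12.7% of all genes. At 10 d against 3 d, 1 was higher (3.57%) and 5 were lower (17.9%), against 8.84% and 23.7%, and this balance turned to 4 higher and 3 lower under median-of-ratios scaling and under quantile normalization. In leaves 1 of the 29 rose (3.45%) and 2 fell (6.9%) with head removal, against 4.32% and 7.05% of all leaf genes, and 1 was higher and 0 lower in dd, against 4.7% and 0.738%. At 10 d 3 of the 29 were higher (10.3%) and 1 lower (3.45%), against 17.8% and 3.69%, and this balance turned to 1 higher and 2 lower with median-of-ratios scaling and to 0 higher and 2 lower with quantile normalization. The shares in leaves were thus close to or under those of all genes, and the direction by day depended on the scaling. The list holds genes that the study named from these same samples, so its counts are not independent evidence of direction.

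**Figure D4:**
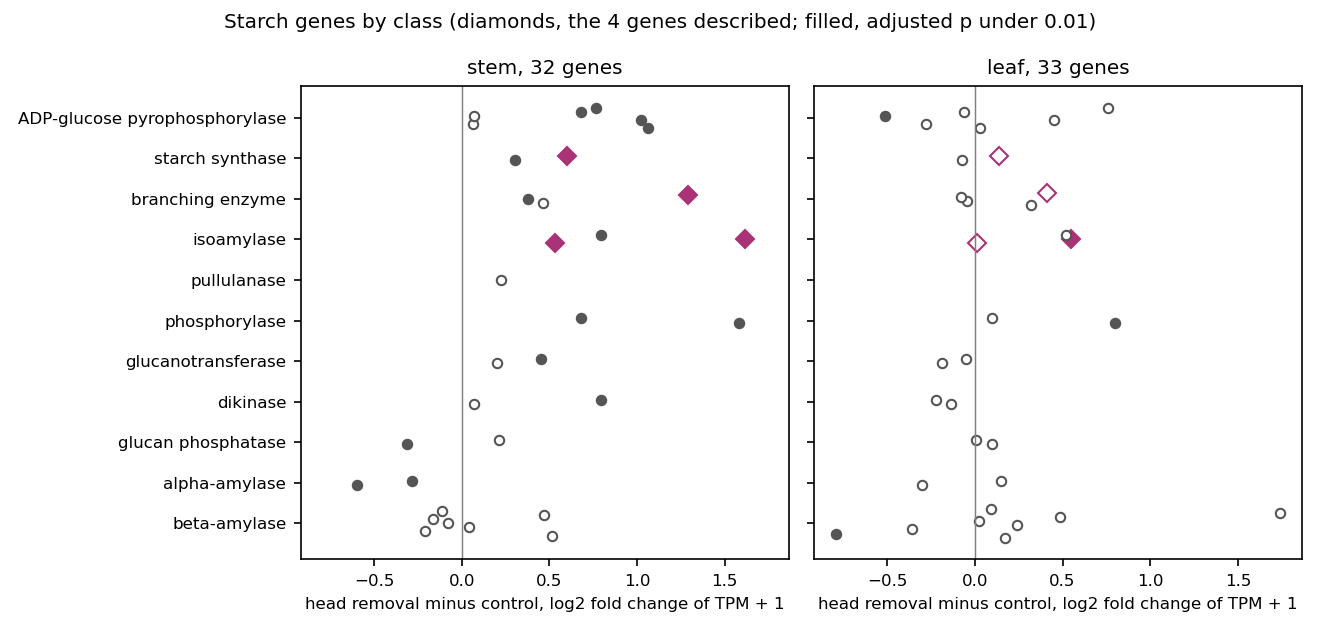
Log2 fold change of TPM + 1 with head removal (horizontal axis) for the 32 starch genes of stems (left) and 33 of leaves (right) by class (vertical axis), with the 4 genes described as diamonds and filled symbols where the adjusted p was under 0.01. In stems isoamylase 1 (1.62) and alpha-glucan phosphorylase 1 (1.58) lie farthest to the right, and the 3 filled symbols left of 0 are 2 alpha-amylases and 1 glucan phosphatase.

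Of the 5 other isoamylase, pullulanase, branching enzyme and starch synthase genes of stems, 3 rose with head removal and 0 fell. Of all stem genes, 14.4% rose and 23.5% fell. In leaves 0 of 5 passed, where 4.32% of all genes rose and 7.05% fell. The remaining isoamylase of the stem, isoamylase 2 (Sobic.009G127500), which in many plants is a catalytically inactive partner of isoamylase 1, rose by 0.80 ± 0.18 with head removal (log2, SE, adjusted p = 0.000672), from a mean of 9.30 TPM in controls. In leaves its effect was 0.52 ± 0.18 (adjusted p = 0.035). The ratio of isoamylase 1 to isoamylase 2 transcripts was 1.78 ± 0.38 (SD, n = 15) in control stems, 3.12 ± 0.66 (SD, n = 14) in decapitated stems and 3.85 ± 0.25 (SD, n = 4) in dd stems decapitated for 10 d. In leaves it was 0.77 ± 0.30 (SD, n = 12) in controls and 0.76 ± 0.21 (SD, n = 12) after head removal. Isoamylase 1 made up 20.2% of the transcripts of the 3 isoamylases in control stems and 35.2% in decapitated stems, and isoamylase 2 11.8% and 11.4%.

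The family of branching enzymes was dominated by another gene. Sobic.006G066800, described as a branching enzyme of the chloroplast and amyloplast, held a mean of 1156 TPM in stems and 212 TPM in leaves. Its effect of head removal in stems was 0.47 ± 0.16 and did not pass (adjusted p = 0.017), but passed with median-of-ratios scaling (0.53, adjusted p = 0.00784) and without dd control 3 d replicate 4 (0.53, adjusted p = 0.00446). Another branching enzyme, Sobic.006G067400, rose by 0.38 ± 0.09 (adjusted p = 0.00145) at a mean of 9.88 TPM in stems. The branching enzyme Sobic.010G273800 made up 12.3 ± 2.07% (SD, n = 15) of the branching enzyme transcripts of these 3 genes in control stems and 20.2 ± 3.75% (SD, n = 14) in decapitated stems. In leaves, where another such gene (Sobic.003G213800) was measured at a mean of 2.00 TPM, it made up 10.5 ± 3.62% in controls and 13.5 ± 3.68% after head removal (SD, n = 12 each).

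Starch synthase Sobic.010G047700 was by far the more abundant of the 2 genes described as starch synthases. Genes of the same broad protein family without that name in their description were not counted. One of them, the glycosyltransferase Sobic.002G116000, had a mean of 735 TPM in stems, so the gene's share of all starch synthase transcripts is not known. The other, starch synthase 4 (Sobic.009G209300), which helps to start granules in Arabidopsis, rose by 0.30 ± 0.06 with head removal in stems (log2, SE, adjusted p = 7.64e-05), at a mean of 15.5 TPM, and its difference between genotypes was 0.02 (adjusted p = 0.785). Pullulanase (Sobic.006G015800), the debranching enzyme of another family, was near 3 TPM in stems (2.90 TPM), and its effect of head removal was 0.22 ± 0.10 (adjusted p = 0.0736). The word pattern for granule-bound starch synthase matched no gene description, so no gene was analysed here under that name. Such a gene may stand in the data under another description.

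The gene with the largest effect in each of the other classes was as follows. Alpha-glucan phosphorylase 1 (Sobic.001G083900), which releases glucose 1-phosphate from chain ends, rose by 1.58 ± 0.24 in stems (adjusted p = 5.65e-06) and by 0.80 ± 0.14 in leaves (adjusted p = 0.000816). A large subunit of ADP-glucose pyrophosphorylase (Sobic.001G100000), the enzyme that makes the substrate of starch synthases, rose by 1.06 ± 0.14 in stems (adjusted p = 4.3e-07). Alpha-glucan, water dikinase (Sobic.010G143500), which phosphorylates the granule surface before breakdown, rose by 0.79 ± 0.10 (adjusted p = 2.08e-07). The glucanotransferase DPE2 (Sobic.002G407000), which handles maltose from starch breakdown, rose by 0.45 ± 0.12 (adjusted p = 0.00212). An alpha-amylase (Sobic.003G276400) fell by 0.60 on the log2 scale (-0.60 ± 0.11, adjusted p = 0.000102), and the phosphoglucan phosphatase DSP4 (Sobic.001G538800) fell by 0.31 (-0.31 ± 0.05, adjusted p = 1.03e-05). The alpha-amylase, whose description also names a trehalohydrolase, was low in stems, at means of 3.05 TPM in controls and 1.67 TPM after head removal. Its effect ran from -0.84 to -0.37 under the other settings. Among 7 beta-amylases of stems 0 passed, where 14.4% of all stem genes rose and 23.5% fell. The largest effect among them was that of Sobic.001G226600 (0.52 ± 0.25, adjusted p = 0.0856).

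**Figure D5:**
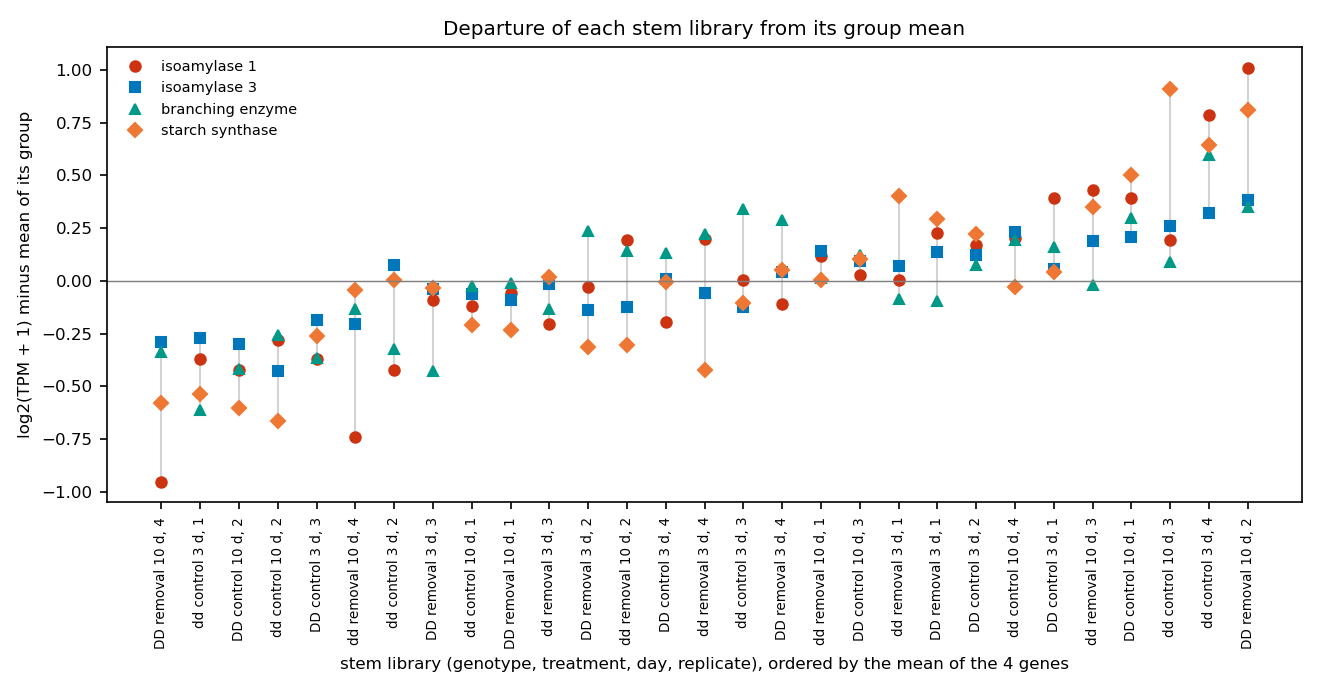
Departure of each of the 29 stem libraries from the mean of its group, in log2(TPM + 1) (vertical axis), for the 4 genes (symbols), with libraries ordered along the horizontal axis by the mean of the 4 departures. All 4 symbols lie above 0 in 8 libraries and below 0 in 9, and the extremes are DD head removal 10 d replicates 4 and 2.

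The 4 genes also varied together between stem libraries of one group. After subtraction of each group's mean, all 4 were above it in 8 of 29 stem libraries, all 4 below it in 9, and 12 were mixed. DD head removal 10 d replicate 2 was higher than its group mean by 1.01 for isoamylase 1, 0.38 for isoamylase 3, 0.35 for the branching enzyme and 0.81 for starch synthase, and replicate 4 of the same group was lower in all (-0.95, -0.29, -0.34 and -0.58). The same held for dd control 3 d replicate 4, with departures of 0.79, 0.32, 0.59 and 0.64. Pearson's r of the departures over the 29 stem libraries was 0.90 for isoamylase 3 with starch synthase, the closest pair, and 0.53 for the branching enzyme with starch synthase, the loosest. These libraries share their field, their TPM scaling and any unequal state of the plants, so the values of r are a description. Departures of the green tissue sum had an r of 0.50 with those of starch synthase, 0.49 with isoamylase 3, 0.24 with isoamylase 1 and 0.03 with the branching enzyme, and the part of green tissue in the shared variation was not tested. In leaves 3 of 24 libraries had all 4 genes on 1 side of their group mean, and r lay between -0.26 and 0.58.

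Genes with a described function were ranked by Pearson's r with each of the 4 over all 29 stem libraries, from log2(TPM + 1), among 13844 genes. An r over 0.8 was common, with 320 genes for isoamylase 1, 343 for isoamylase 3, 237 for the branching enzyme and 64 for starch synthase. Isoamylase 1 was most like alpha-glucan phosphorylase 1 (Sobic.001G083900, r = 0.96), followed by a GrpE co-chaperone (Sobic.006G082500, 0.95), a chloroplast chaperonin (Sobic.004G319800, 0.95), an anthranilate synthase subunit (Sobic.006G109100, 0.95) and a sigma factor of RNA polymerase (Sobic.005G110481, 0.94). On departures from group means, which leave the groups' differences out, the phosphorylase was again first (0.91), and isoamylase 2 (0.88), DPE2 (0.86), a glycosyltransferase (Sobic.002G116000, 0.84) and alpha-glucan, water dikinase (0.84) followed.

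Isoamylase 3 was most like indole-3-glycerol phosphate synthase of tryptophan synthesis (Sobic.006G112600, r = 0.96), the chloroplast import receptor Toc159 (Sobic.009G046800, 0.94), a GTPase of the AIG1 family (Sobic.001G441200, 0.94), a Clp protease (Sobic.006G058100, 0.94) and a chloroplast superoxide dismutase (Sobic.007G166600, 0.93). On departures its 5 were indole-3-glycerol phosphate synthase (0.93), starch synthase (0.90), Toc159 (0.87), a small subunit of ADP-glucose pyrophosphorylase (Sobic.002G160400, 0.86) and the Clp protease (0.86). The branching enzyme was most like an alpha/beta-hydrolase (Sobic.002G200900, 0.94), a RING ubiquitin ligase (Sobic.006G279900, 0.94), inositol oxygenase (Sobic.010G168800, 0.93), a subunit of cytochrome c oxidase (Sobic.002G379000, 0.93) and alpha-glucan phosphorylase 1 (0.93). On departures the phosphorylase came first for this gene too (0.92), followed by an ascorbate peroxidase (Sobic.001G410200, 0.91), the cytosolic phosphorylase (Sobic.003G358600, 0.90), a betaine aldehyde dehydrogenase (Sobic.007G130800, 0.88) and histidinol-phosphatase (Sobic.003G119900, 0.86). Starch synthase was most like a large subunit of ADP-glucose pyrophosphorylase (Sobic.009G245000, 0.89), the enzyme that supplies its substrate, then a ribosomal protein of the large subunit (Sobic.009G206600, 0.88), a methionine aminopeptidase (Sobic.007G184500, 0.87), a gene described only by a transferase family (Sobic.003G182100, 0.87) and a chlorophyll-binding protein (Sobic.002G159100, 0.86). On departures its 5 were isoamylase 3 (0.90), a gene of an unnamed family (Sobic.001G531200, 0.89), a methionine gamma-lyase (Sobic.006G232400, 0.88), the Clp protease (0.86) and a RIO kinase (Sobic.003G382500, 0.84).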

How the data were processed

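RNA sequencing of 29 stem and 24 leaf samples was analysed, and the other labelled samples were not analysed here. Per the labels the authors used FastQC, Trimmomatic, STAR and, for their comparisons, DESeq2. Versions and the genome build are not given in the sources used here. The deposited tables give TPM by sample. They keep genes that exceeded 3 TPM in 2 or more samples, as a check of the files showed. Column totals ran from 994406 to 996581 TPM (stem table) and from 994771 to 995806 TPM (leaf table). TPM keeps no depth. The deposited comparisons, clusters and overlaps of differentially expressed genes hold the authors' fold changes and p-values and were not used. No identical columns were found, and 0 columns of sample values were left unused.

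Each organ was fitted with limma 3.58.1 (R 4.3.3) on log2(TPM + 1), with additive treatment, genotype and day, a variance trend, and Benjamini-Hochberg adjustment across each organ's table. A gene passed under an adjusted p of 0.01. Effects within combinations and interactions came from 8 group means, and the organ difference from 1 joint model. The fits were tested on simulated data with known effects. Named genes were the 4 members, the isoamylase, pullulanase, branching enzyme and starch synthase classes, the largest stem effect of each other starch class, and the 5 genes most like each member. The members and lists were chosen with earlier results of these data known. Other settings were a replicate block, group means, array weights, robust or untrended variances, quantile or median-of-ratios scaling, a filter on mean TPM (10 or more), pseudocounts of 3 and 0.1, a threshold of 0.05 for list counts, separate organ fits and leaving out each sample. Fits that leave out replicates 3 and 4 of stem dd control 10 d, or replicates 2 and 3 of leaf DD head removal 3 d (the stem pair and the leaf pair), were added after seeing the data.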

Additional observations from a re-analysis of the deposited data

Results flagged for a closer look

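The branching enzyme Sobic.010G273800 read 86.5 TPM in stem DD control 3 d replicate 3, below the other 3 libraries of the group (118 to 125 TPM) by 0.837 of the group's whole range on the log2(TPM + 1) scale. Chance sets about 1 in 20 groups of 4 apart in this way. The rule was run for each gene in every stem group of 4 libraries, so 1 such flag by chance would not be unusual. The effect of head removal differed between stems and leaves for 3 genes by the test of the difference itself (limma), with a stem minus leaf value of 1.07 on the log2 scale for isoamylase 1 (Sobic.007G204600, adjusted p = 0.00104), 0.88 for the branching enzyme (Sobic.010G273800, adjusted p = 0.000113) and 0.52 for isoamylase 3 (Sobic.002G233600, adjusted p = 0.000301).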

How the results depend on the processing

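The treatment effects of the 4 genes in stems and the 3 called differences between stems and leaves kept their direction and call under every alternative run. Some uncalled effects near 0 changed sign. For starch synthase and day in stems the value was -0.00188 with array weights, -0.0215 without the stem pair (dd control 10 d replicates 3 and 4), and -0.0770 to 0.0938 without 1 sample. For isoamylase 1 it was -0.00525 for day in leaves with quantile normalization, and for genotype in leaves 0.00534 with the replicate block, 0.0957 without the leaf pair (replicates 2 and 3 of DD head removal 3 d), and -0.0619 to 0.0511 without 1 sample. For isoamylase 3 and treatment in leaves it was -0.0146 with array weights and -0.0153 to 0.0456 without 1 sample. For starch synthase and head removal in dd stems at 3 d it ran from -0.10 to 0.32 without 1 sample. The branching enzyme passed for day in stems with array weights (0.35) and median-of-ratios scaling (0.43), and ranged from 0.29 to 0.39 without 1 sample. Isoamylase 3 missed the threshold for genotype in stems without the stem pair (0.30), and ranged from 0.29 to 0.36 without 1 sample. Isoamylase 1 missed it for treatment in leaves without the leaf pair (0.44). The cause of these changes was not tested.

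Counts of the other starch genes moved as follows. For day in leaves, the 1 lower gene became 3 with array weights or a threshold of 0.05, 2 with either scaling, the replicate block or without the leaf pair, and 1 to 2 without 1 sample, and the 3 higher genes became 5 with array weights, 1 with median-of-ratios scaling, 0 with quantile normalization, 6 at 0.05 and 1 to 4 without 1 sample. For day in stems, the 5 lower became 3 with either scaling, and the 1 higher became 2 with array weights, 0 under the filter on mean TPM, 4 with either scaling, 3 at 0.05 and 0 to 2 without 1 sample. For genotype in leaves, the 0 lower became 1 with array weights, the replicate block or without the leaf pair, 2 at 0.05 and 0 to 1 without 1 sample, and the 1 higher became 0 under the filter on mean TPM or without the leaf pair, 2 with the replicate block or at 0.05, and 0 to 1 without 1 sample. For genotype in stems, the 2 lower became 0 under the filter on mean TPM and the 5 higher became 9 with quantile normalization. For treatment in leaves, the 2 that fell became 1 under the filter on mean TPM or without the leaf pair, and the 1 that rose became 2 with group means, array weights or no trend, 3 with median-of-ratios scaling, 6 at 0.05 and 1 to 3 without 1 sample. The replicate numbers were not taken as pairs, because 3 of 13 same-numbered pairs in stems and 1 of 10 in leaves had a correlation of deviations over 0.1. TPM keeps no depth, so no limit of detection is given.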
